A study of Mus musculus with 9 samples.

Results

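The chemokine system was described in 9 single-cell RNA libraries of mouse kidney through 42 genes, out of 53 genes whose symbols follow the naming rule and 32427 genes in the matrices. A gene was included when its symbol began with Ccl, Cxcl, Ccr or Cxcr and a digit, or was Cx3cl1, Cx3cr1 or Xcr1, had no hyphen, and had at least 20 UMIs over all barcodes. A UMI (unique molecular identifier) tags 1 captured RNA molecule. Of these 42 genes, 27 are chemokines (ligands) and 15 are chemokine receptors. The members were chosen by these UMI totals: Cxcl11 with 32 UMIs and Ccl19 with 34 lay just inside the minimum, and Cxcl13 with 18 and Ccl24 with 17 lay just outside it.

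Chemokines are small secreted proteins that steer migrating leukocytes, and most act through G protein-coupled receptors on those cells. Ligands such as Ccl2, Cxcl1 and Cxcl10 are made on demand after tissue injury and recruit monocytes, neutrophils and activated T cells, whereas Cxcl12, Ccl19 and Ccl21a position cells in healthy tissue. In the kidney, tubule cells, endothelial cells and resident macrophages are all known sources, and chemokine production by injured tubules is a recognised part of acute and chronic kidney disease.

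All 9 kidneys came from male C57BL/6 mice that were 6 weeks old on arrival, and 3 mice per group were analysed. Control mice received intraperitoneal saline. AKI-CKD mice, the model of acute kidney injury passing into chronic kidney disease, received weekly intraperitoneal cisplatin at 8 mg/kg for 4 weeks. AKI-CKD + EGT mice received the same cisplatin and ergothioneine (EGT), a diet-derived thiol antioxidant, at 0.5 mg/mL in drinking water from before the first injection until the end, and are called EGT-treated mice below. Kidneys were taken after 8 weeks, and part of a kidney was dissociated for each library. EGT without cisplatin was not among these groups, so its values are those of a co-treatment. The comparisons asked how the model differed from Control and how EGT-treated mice differed from untreated AKI-CKD mice. They share the 3 AKI-CKD mice. Values of 3 mice are listed below in the order of mouse 1, 2 and 3, and p-values measure the spread between these mice alone.

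The matrices held 70106161 to 101525691 UMIs, and 196925 of 216680 barcodes passed the limits on UMIs, genes and mitochondrial share. The study states a lower number of cells under the same limits. Of the barcodes that passed the limits on UMIs and genes, the mitochondrial limit removed 17.0% in Control mouse 1 and 27.7% in AKI-CKD + EGT mouse 3. It removed 0.909% to 7.94% in the other mice, so the libraries of Control mouse 1 and AKI-CKD + EGT mouse 3 stand apart. Of 98290 different barcode names, 62337 occurred in more than 1 matrix. The names are serial, so this does not show shared cells. Kept cells had a median of 2714 UMIs. Clusters were named from fixed lists of marker genes that hold no chemokine gene, and every class name below means cells that resemble that type. Proximal tubule (PT)-like cells numbered 149141 and held 80.5% of all UMIs. The 7 immune classes together had 2051 cells, 1.04% of the kept cells and 0.704% of the UMIs. A further 2290 cells raised immune and tubule markers together and are kept apart as immune and tubule cells, and 17469 cells stayed unnamed. No doublet caller was run.

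Promoter sequences of 3 inducible ligands are shown because the tubular RNA of Cxcl1 and Cxcl10 differed strongly between mice of 1 group, as described below, and because Cxcl2 is a close relative of Cxcl1. They are the 250 bases before the annotated start of Cxcl1, Cxcl2 and Cxcl10, from RefSeq on build GRCm38.p6, which is not the build of the count files (GRCm39). All 3 genes lie on chromosome 5, and the stretches of 250 bases are chr5:90890995-90891244 (plus strand), chr5:90903649-90903898 (plus strand) and chr5:92348890-92349139 (minus strand). Capitals mark matches to the letters of an NF-kB motif (GGGANNTTCC) and an interferon-stimulated response element (ISRE, GAAANNGAAA), and the AP-1 match of Cxcl10 named below is left in lower case.
Cxcl1: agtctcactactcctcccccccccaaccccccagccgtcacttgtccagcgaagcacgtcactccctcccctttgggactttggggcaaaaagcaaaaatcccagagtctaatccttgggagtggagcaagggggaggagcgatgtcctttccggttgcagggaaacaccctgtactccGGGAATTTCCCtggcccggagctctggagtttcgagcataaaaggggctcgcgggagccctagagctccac
Cxcl2: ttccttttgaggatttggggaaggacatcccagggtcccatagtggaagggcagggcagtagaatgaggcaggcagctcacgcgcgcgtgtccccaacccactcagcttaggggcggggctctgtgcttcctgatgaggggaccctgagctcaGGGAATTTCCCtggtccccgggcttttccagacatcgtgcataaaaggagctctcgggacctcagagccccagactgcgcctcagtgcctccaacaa
Cxcl10: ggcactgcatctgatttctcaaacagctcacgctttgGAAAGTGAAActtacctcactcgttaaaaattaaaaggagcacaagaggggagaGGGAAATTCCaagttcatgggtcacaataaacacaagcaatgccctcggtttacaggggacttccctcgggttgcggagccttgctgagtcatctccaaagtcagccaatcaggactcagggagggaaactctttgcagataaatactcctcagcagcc

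The NF-kB letters, which can be bound by the family of factors that switches on many inflammatory genes, began 71 and 70 bases before the start of Cxcl1 and 97 and 96 bases before that of Cxcl2, where 2 matches overlap in 1 run. In Cxcl10 they began 159 bases before the start, and the ISRE letters, which interferon-activated factors can bind, began 213 bases before it. Over the 250 bases before the start, searched on both strands, the NF-kB letters occurred in 1.36% of 27025 genes and in 4 of the 31 members with a sequence (12.9%), namely Ccl1, Cxcl1, Cxcl2 and Cxcl10. The ISRE letters occurred in 3.46% of all genes and in 3 members, Ccl19, Cxcl10 and Cxcl14. AP-1 letters (TGANTCA) occurred in 7.82% of genes and in 4 members, Ccl27a, Ccl9, Ccr4 and Cxcl10, and TATA letters (TATAAA) in 14.3% of genes and in 8 members. A match describes the letters only and does not show binding.

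Levels by cell class are given as CPM, counts per 1000000, the UMIs of a gene relative to all UMIs of the class pooled over 9 mice, and as the share of cells with at least 1 UMI. CPM was not used to rank genes against each other. The 42 genes had 168152 UMIs in kept cells, and the 5 genes with most, Cxcl16, Ccl27a, Ccl4, Cxcl10 and Cxcl1, held 64.8% of them. All 15 receptors and 17 of the 27 ligands had their highest level in an immune class. Of the 42, 9 were highest in macrophage-like cells, 5 each in T-like and B-like cells, 4 each in monocyte-like and dendritic-like cells, 3 in neutrophil-like and 2 in NK-like cells. The other 10 ligands were highest in cells of the tubule, vessels, glomerulus or stroma. Classes were built from the same cells, so these orders are descriptions without a test. The class with the highest level differed for 7 genes when cells were clustered without Harmony, the step that aligns the mice before clustering. These were Ccl27a (neutrophil-like), Cx3cl1 (endothelial-like), Ccl25, Ccr9 and Cxcl17 (lymphatic-endothelial-like), Cxcl9 (monocyte-like) and Ccl21a (stromal-like), each with the class it was then highest in.

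**Figure D1:**
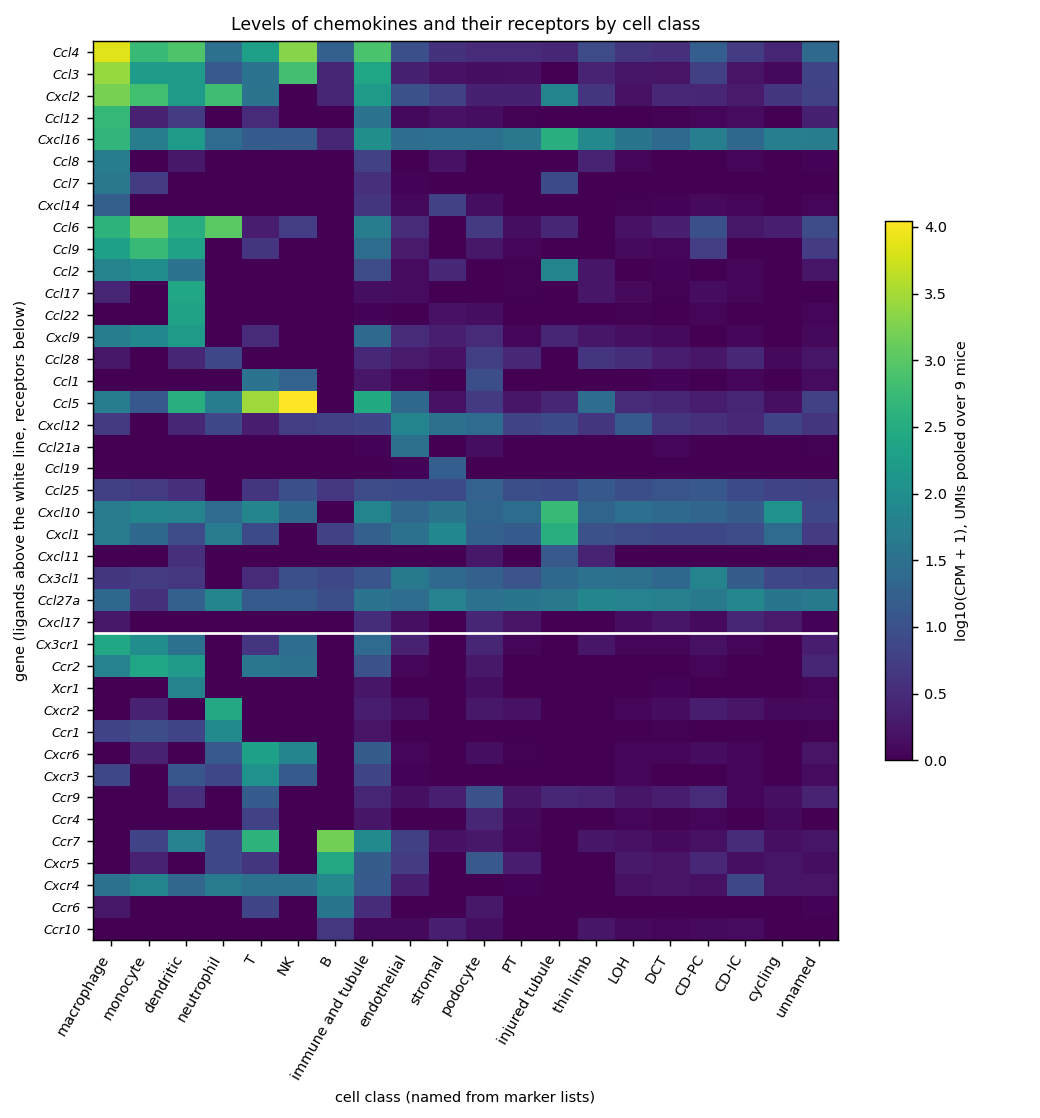
Levels of 41 of the genes (rows, ligands above the white line and receptors below) in each cell class (columns), as log10(CPM + 1) of UMIs pooled over 9 mice. Bright cells in the left columns show Ccl4, Ccl3 and Cxcl2 in macrophage-like cells, Ccl5 in NK-like and T-like cells and Ccr7 in B-like cells, whereas Cxcl10, Cxcl1 and Cxcl11 peak in injured-tubule-like cells, and Cxcl16, Ccl27a, Ccl25 and Cx3cl1 are spread over the tubule columns.

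Macrophage-like cells carried the inflammatory ligands Ccl4 and Ccl3, which draw monocytes and T cells. Ccl4 reached 6982 CPM and was found in 74.8% of 607 cells (71.2% after each cell was thinned to 1000 UMIs), against 0.774% (0.235% thinned) of PT-like cells, which have more UMIs per cell (median 2930 against 1796). The level in macrophage-like cells ran from 3738 to 13449.9 CPM over the 9 mice, with a median of 6217 CPM. Ccl3, its close relative, reached 2674 CPM there and 681 CPM in NK-like cells. Both were detected together in 358 macrophage-like cells, of 400 with Ccl3 and 454 with Ccl4. Cxcl2, a neutrophil attractant, was 1637 CPM in macrophage-like, 658 in monocyte-like and 647 in neutrophil-like cells. The Ccr2 ligand Ccl12 had 59.7% of its UMIs in macrophage-like cells, at 492 CPM against 1.36 CPM in monocyte-like cells. In B-like cells no UMI of it was found in 355 cells, which allows up to 0.845% of cells with a captured UMI, a limit that says nothing of cells whose RNA was not captured. Ccl8, Ccl7 and Cxcl14 were also highest in macrophage-like cells, at 50.6, 40.3 and 15.8 CPM.

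The 14 dissociation-linked genes (Fos, Jun, Hspa1a and others) summed to 25615, 27124 and 14535 CPM in Control mice, 13335, 32815 and 25629 CPM in AKI-CKD, and 15828, 27874 and 21694 CPM in EGT-treated mice in macrophage-like cells. In Control mouse 3 and AKI-CKD mouse 1, where this sum was lowest, Ccl4 was also lowest, at 3738 and 3973 CPM, and in AKI-CKD mouse 2, where it was highest, Ccl4 was highest at 13449.9 CPM. The part of dissociation in these levels was not tested.

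Monocyte-like cells, which the lists identify by Ly6c2, Plac8 and Ace, had the highest Ccl6 (1343 CPM, in 82.6% of 224 cells), Ccl9 (550.4 CPM) and Ccl2 (95.4 CPM). Ccl6 and Ccl9 are mouse ligands of Ccr1, and Ccl2 is the main ligand that calls Ccr2-bearing monocytes out of the blood. Ccl6 ran from 381 to 1967 CPM over the 9 mice, with a median of 1370.0 CPM. Ccl2 was also seen in injured-tubule-like cells (67.0 CPM) and macrophage-like cells (63.3 CPM). Dendritic-like cells had the highest Ccl17 (270.1 CPM) and Ccl22 (214 CPM), both ligands of Ccr4, and the interferon-inducible Cxcl9 (156 CPM).

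The lymphocyte ligand Ccl5, which cytotoxic cells store and release, was found in 96.7% of 90 NK-like cells (95.2% thinned) at 11169 CPM and in 42.0% of 462 T-like cells (36.9% thinned) at 2827 CPM. Its NK-like level ran from 5622 to 14302 CPM over the 9 mice, with a median of 11081 CPM. No Ccl5 UMI was found in 355 B-like cells, which allows up to 0.845% of cells with a UMI, and PT-like cells had 0.728 CPM. Ccl1, a Ccr8 ligand of activated T cells, was highest in T-like cells (33.7 CPM).

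Several receptors had their highest levels in lymphocytes. Ccr7, which brings lymphocytes to lymphatic tissue, was found in 78.3% of B-like cells (66.9% thinned) at 1526 CPM, in 28.4% of T-like cells (21.3% thinned) at 411 CPM, and without a UMI in 607 macrophage-like cells, which allows up to 0.494% of cells with a UMI. Its B-like level ran from 819 to 2319.9 CPM over the 9 mice, with a median of 1445 CPM. Cxcr5, the receptor for follicle homing, was 279 CPM in B-like cells and in 32.7% of them (23.7% thinned). Ccr6 (36.6 CPM) and Cxcr4 (78.1 CPM) were also highest there, and Ccr10 had 2 UMIs in them, 5.41% of its UMIs. T-like cells led in Cxcr6 (205 CPM) and Cxcr3 (118 CPM), the receptors for Cxcl16 and for Cxcl9 and Cxcl10. Their levels of Ccr9 (14.3 CPM) and Ccr4 (5.10 CPM), also the highest of any class, rested on 14 and 5 UMIs, 2.20% and 3.36% of the UMIs of each gene. Without Harmony the highest class for Ccr9 was lymphatic-endothelial-like.

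Cx3cr1, the receptor of Cx3cl1 on resident macrophages and patrolling monocytes, was 255 CPM in macrophage-like and 95.4 CPM in monocyte-like cells. Ccr2 had the reverse order, with 247 CPM in monocyte-like, 149.6 CPM in dendritic-like and 62.5 CPM in macrophage-like cells. Cxcr2, the neutrophil receptor for Cxcl1 and Cxcl2, was 279.8 CPM in 57 neutrophil-like cells and in 43.9% of them (25.3% thinned). Ccr1, found on many myeloid cells, was also highest there (87.0 CPM). Xcr1, which marks cross-presenting dendritic cells, was 63.3 CPM in dendritic-like cells.

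PT-like cells far outnumbered immune cells, and 13 of the 42 genes had over 50% of their UMIs in PT-like cells, and 6 of these 13 were highest in an immune class: Cxcl16, Ccl28, Cxcr5, Ccr9, Cxcr2 and Ccr4. PT-like cells held 56.4% of the Cxcr5 UMIs, 69.9% of Ccr9, 76.5% of Cxcr2 and 83.9% of Ccr4, at levels of 1.02, 0.756, 0.558 and 0.213 CPM. The ratios between genes of 1 immune type differed between classes. In B-like cells the ratio of Cxcr5 to Ccr7 UMIs was 0.183 (168 to 918), and in PT-like cells it was 5.75 (598 to 104). Cxcr2 against the neutrophil gene S100a8 stood at 0.0177 in neutrophil-like and 0.808 in PT-like cells. Ccr9 and Ccr4 against Cxcr6 stood at 0.0697 and 0.0249 in T-like and at 12.7 and 3.57 in PT-like cells. For Ccl4 against the macrophage gene C1qa the ratio was close, 1.30 in macrophage-like and 1.52 in PT-like cells.

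The source of the PT-like counts of these 4 receptors was not tested. In the GENCODE annotation on GRCm38, Cxcr5 overlaps an exon of Bcl9l, and Ccr9 an exon of Slc6a20a and, on its own strand, an exon of Gm17200. Strand would not separate the reads of Ccr9 and Gm17200, and for the other pairs whether counting used strand is not given in the sources used here. Bcl9l itself was 30.8 CPM in PT-like and 19.95 CPM in B-like cells, Slc6a20a was 6.01 CPM in PT-like and 3.06 CPM in T-like cells, and Gm17200 had 253 UMIs (0.431 CPM) in PT-like cells and 1 UMI in T-like cells. Reads of such pairs could be assigned to either gene, and their part in the PT-like counts was not tested. Exons of 8 members overlap another gene in all, among them Cxcl16, Ccl27a, Cxcl10 and Ccl25. The share of PT-like cells with a Cxcr5 UMI was 0.348% and that with a Cxcr2 UMI 0.211%, or 0.0847% and 0.0463% at 1000 UMIs.

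Among the ligands with wide expression in the epithelium, Cxcl16, a membrane-bound ligand of Cxcr6, had 24142 UMIs in PT-like cells (78.0% of its total). Its PT-like level was 41.1 CPM, in 12.1% of cells (3.90% thinned). It was higher per UMI in macrophage-like (459 CPM, 52.2% of cells) and injured-tubule-like cells (353 CPM, 71.3%), and B-like cells held 1 UMI of it. Ccl27a, a skin and epithelial chemokine for Ccr10, was widespread, at 36.3 CPM in PT-like, 61.3 in loop of Henle (LOH)-like and 72.5 CPM in intercalated (CD-IC)-like cells. Its near copy Ccl27b had 2 UMIs in kept cells, and reads shared between the copies make the split uncertain. Il11ra1, whose exon overlaps Ccl27a on the other strand, was 44.3 CPM in PT-like, 55.8 in LOH-like and 60.6 CPM in CD-IC-like cells. Whether counting used strand is not given, and the part of Il11ra1 reads in the Ccl27a counts was not tested.

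Cx3cl1, the tethered ligand of Cx3cr1, was highest in principal (CD-PC)-like cells (64.8 CPM), followed by endothelial-like (42.4 CPM), thin-limb-like (31.1 CPM) and LOH-like cells (30.3 CPM), and was 9.81 CPM in PT-like cells. Without Harmony its highest class was endothelial-like. Ccl25, the Ccr9 ligand, was 17.4 CPM in podocyte-like and 8.40 CPM in PT-like cells. Elavl1, whose exon overlaps Ccl25 on the other strand, was 43.7 and 29.4 CPM in these classes, and its part in the Ccl25 counts was not tested. The mucosal chemokine Ccl28 had 86.6% of its UMIs in PT-like cells at 1.88 CPM. Its highest class by CPM, the neutrophil-like cells, rested on 1 UMI. Cxcl17, highest in CD-IC-like cells (1.76 CPM), had 81.5% of its UMIs in PT-like cells.

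Per UMI, the homing ligands were highest in vessels and stroma. Cxcl12, which retains Cxcr4-bearing cells, was 66.2 CPM in endothelial-like, 29.7 in stromal-like and 25.1 in podocyte-like cells. Of its UMIs, however, 69.3% were in PT-like cells, the most numerous class, against 16.7% in endothelial-like and 1.03% in stromal-like cells. Ccl19, a ligand of Ccr7, was 15.5 CPM in stromal-like cells, and its pseudogene Ccl19-ps2 had 18 UMIs. The other Ccr7 ligand, Ccl21a, was 30.4 CPM in endothelial-like cells, and it came from very few of them, as given next. Ccl21a has near-identical copies in the mouse genome, so its count is uncertain.

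For some members a handful of cells made up the count. In 14 of the 42 genes the 5 cells with most UMIs held over 20% of the gene's total, and in 4 genes they held over 50%: Ccl21a (95.4%), Ccl22 (85.6%), Ccl17 (77.6%) and Ccl7 (58.0%). All 374 Ccl21a UMIs of endothelial-like cells lay in 5 cells, from the 3 AKI-CKD + EGT mice, with 92, 188 and 94 UMIs by mouse. These 5 cells also carried all 6 lymphatic endothelial markers: their 99 marker UMIs came to 4784 CPM, against 41.3 CPM in the other 3522 endothelial-like cells, with Mmrn1 at 45, Lyve1 at 20, Reln at 15 and Prox1 at 11 UMIs. Ccl17 and Ccl22 were concentrated in single dendritic-like cells, with 280 of 316 Ccl17 UMIs and 236 of 250 Ccl22 UMIs in 5 cells. The 5 Ccl17 cells had a median of 10328 UMIs and carried 6 of the 9 dendritic markers, at 1269 CPM against 1455 CPM in the other 251 dendritic-like cells. The 5 Ccl22 cells had a median of 6119 UMIs and carried 5 of the 9, at 552 CPM against 1471 CPM, on 17 marker UMIs. Such counts describe a few captured cells, and fewer cells of a type and less RNA per cell cannot be told apart in any sum over a mouse.

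**Figure D2:**
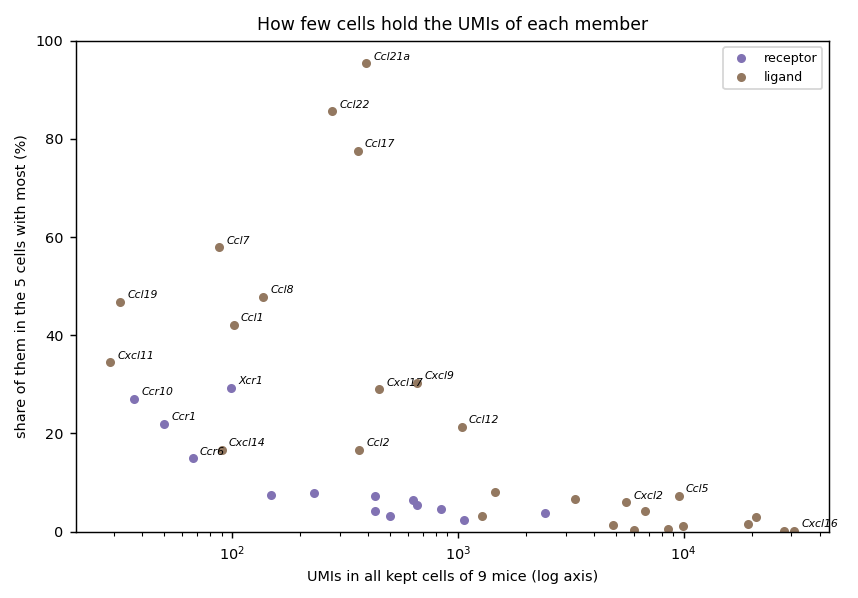
Share of each gene's UMIs that lay in its 5 cells with most (vertical axis, percent) against its UMIs in all kept cells of 9 mice (horizontal log axis), 1 point for each of 41 genes. Ccl21a, Ccl22, Ccl17 and Ccl7 stand above 50%, whereas Cxcl16, with 30963 UMIs, had 0.165% in its top 5 cells.

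Cxcl1, the neutrophil attractant, and Cxcl10, the interferon-inducible ligand of Cxcr3, had most of their UMIs in PT-like cells, 82.7% and 80.5%. Clustering without Harmony gave clusters named PT-like 44.4% and 23.9% of them, and put 40.8% and 57.9% in an unnamed cluster described with the proximal tubule. Both were highest in the 108 injured-tubule-like cells, which raised 4 of the 5 injury markers, Sox9 among them, and were led by Defb36 and Sfrp5, with the immune genes C3 and Ubd also among their top 10. There Cxcl10 reached 563 CPM, in 45.4% of cells (26.5% thinned), against 3.05% (1.33% thinned) of PT-like cells, with medians of 4374.5 and 2930 UMIs. Cxcl1 reached 340.5 CPM and 33.3% of the injured-tubule-like cells (18.6% thinned). Those cells numbered 5 to 20 a mouse and were present in all 3 groups. Their Cxcl10 was 232, 737 and 276 CPM in Control mice, 288, 1067 and 344 CPM in AKI-CKD, and 118, 900.2 and 557 CPM in EGT-treated mice, so every Control mouse held it too. Cxcl11, a relative of Cxcl10, was found in the same class with 7 UMIs.

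In PT-like cells Cxcl10 was 43.0, 2.78 and 5.22 CPM in Control mice, 1.14, 112 and 7.26 CPM in AKI-CKD, and 12.3, 73.2 and 12.2 CPM in EGT-treated mice. The Control range overlapped both other groups, since Control mouse 1 was above 2 of the AKI-CKD mice. Cxcl1 followed the same mice, at 34.2, 2.00 and 4.98 CPM in Control mice, 1.53, 25.3 and 7.72 CPM in AKI-CKD, and 17.5, 32.8 and 11.4 CPM in EGT-treated mice. In both genes AKI-CKD mouse 1 was the lowest of the 9 and Control mouse 1 and mouse 2 of the cisplatin groups were the highest of their groups. A list of 14 genes, called the inducing list, holds Tnf, Il1b and Irf1 but also Nfkbia and Tnfaip3, which encode inhibitors of NF-kB. In PT-like cells it summed to 242, 77.8 and 88.6 CPM in Control mice, 78.6, 273 and 118 CPM in AKI-CKD, and 167, 305 and 146 CPM in EGT-treated mice. The 14 dissociation-linked genes summed there to 2964, 2219 and 1109.7 CPM in Control mice, 1584, 3324 and 2074 CPM in AKI-CKD, and 1485, 2608 and 3276 CPM in EGT-treated mice. The part of either list in the chemokine levels was not tested. The fitted log2 fold changes were 1.38 ± 1.39 (SE) for Cxcl10 against Control and -0.46 ± 1.36 with EGT, with edgeR adjusted p-values of 0.703 and 0.900. For Cxcl1 they were -0.10 ± 0.99 and 0.66 ± 0.99, with adjusted p-values of 0.976 and 0.782. With clusters made without Harmony the Cxcl1 values were -1.02 and 1.34 (edgeR adjusted p = 0.616 and 0.427), from means of 9.17 CPM in Control, 4.53 CPM in AKI-CKD and 11.4 CPM with EGT, and the Cxcl10 values were 0.37 and 0.60 (adjusted p = 0.897 and 0.796). The spread between mice of 1 group exceeded the difference between groups.

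**Figure D3:**
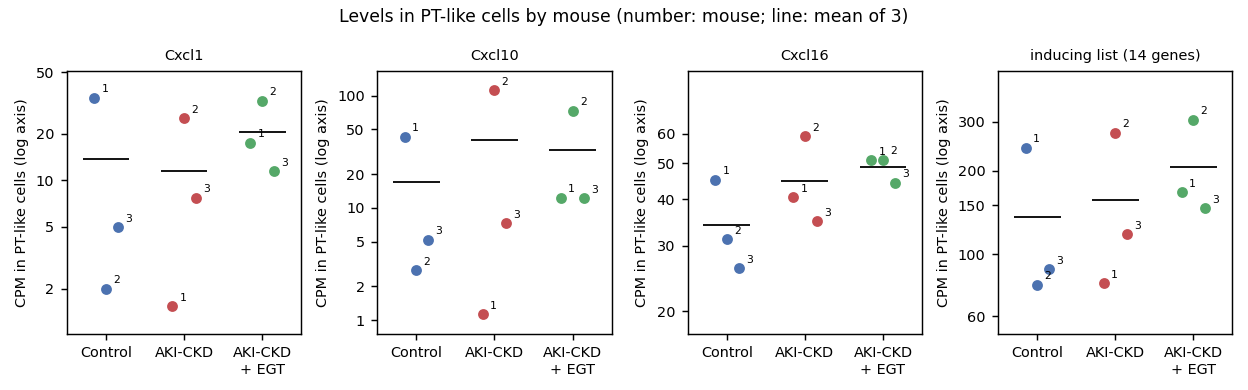
Cxcl1, Cxcl10, Cxcl16 and the summed 14 genes of the inducing list in PT-like cells, in CPM on log axes, with 1 numbered point a mouse and a line at the mean of 3. Cxcl1 and Cxcl10 are lowest in AKI-CKD mouse 1, at 1.53 and 1.14 CPM, and the 3 groups overlap in each panel.

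Within the proximal tubule the RNA of both ligands was uneven. PT-like cluster 1, led by Slc34a3, Car3 and Clec2h, had 20037 cells and 15.3% of all UMIs but 61.2% of Cxcl10 and 42.2% of Cxcl1. Its Cxcl10 level was 149, 6.41 and 22.3 CPM in Control mice, 1.78, 369 and 25.7 CPM in AKI-CKD, and 41.8, 293 and 29.9 CPM in EGT-treated mice, again with AKI-CKD mouse 1 lowest and AKI-CKD mouse 2 highest. Without Harmony 44.3% of its cells fell in the unnamed cluster, whose 11000 cells were led by Osgin1, Angptl4, Gadd45g, G0s2 and Hmox1, among them the stress genes Osgin1, Gadd45g and Hmox1. That cluster raised 6 PT markers but had none of them among its leading genes, and 24.5% of its cells came from Control mouse 1. Under that clustering as a whole, in which other cells also entered or left the class, mean Cxcl10 in PT-like cells was 6.47 CPM in Control, 8.47 CPM in AKI-CKD and 12.6 CPM with EGT, in place of 16.2, 42.5 and 30.8 CPM. The part of stress or of single mice in these levels was not tested. Cluster 4, led by Gm29773, Gm22146 and Gm37760, held 30.5% of Ccl28 and 19.2% of Cxcl1, the latter near its 16.03% of all UMIs. Cxcl16 was highest in cluster 10 (Spp2, Slc34a3, Cyp2d26) at 92.8 CPM, followed by cluster 7 (Apob, Spp2, F5) at 88.4 CPM and cluster 1 at 71.9 CPM. Of the PT-like cells with Cxcl1 (4446) or Cxcl10 (4542), 1179 had both, 26.5% and 26.0% of them. In macrophage-like cells 0 of 21 cells with Cxcl1 and 22 with Cxcl10 had both.

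Over all kept cells, UMIs were summed per mouse and tested with edgeR's quasi-likelihood test in 1 fit of 9 mice, with Benjamini-Hochberg adjustment over 20144 genes. Of the 42 members 37 passed the filter on low counts, and Ccl19, Cxcl11, Ccr1, Ccr6 and Ccr10 did not. Against Control, AKI-CKD mice had no member called at an adjusted p under 0.05, while 0.0199% of all genes were called. DESeq2 called 129 genes, 2 of them members, Ccl17 and Ccl22. At an unadjusted p under 0.05, 5 members were higher (background 3.67% of genes) and 1 was lower (4.35%). The median log2 fold change was 0.05 over the tested members and 0.00 over all genes.

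The member that was lower was Ccl28, described with the proximal tubule, which did not overlap with Control either (9.33% of genes). The dendritic ligands Ccl22 and Ccl17 were the largest of these differences. Both passed the filter on low counts only through mice of the cisplatin groups. Their direction against Control was thus favoured by that filter, and their values and DESeq2 calls are given as a description. Dendritic-like cells were 0.0827, 0.0910 and 0.0815% of kept cells in Control mice, 0.112, 0.207 and 0.146% in AKI-CKD, and 0.116, 0.225 and 0.133% in EGT-treated mice, so every AKI-CKD mouse was above the Control mice, and the part of these shares in the ligands' differences was not tested. Ccl22 had 2, 3 and 0 UMIs in Control mice, 4, 159 and 90 UMIs in AKI-CKD, and 2, 17 and 1 UMIs in EGT-treated mice. The AKI-CKD mice were all above the Control mice, as in 6.15% of genes, yet 2 of them held nearly all the UMIs. Its log2 fold change was 5.80 ± 1.40 (unadjusted p = 0.00170, edgeR adjusted p = 0.409), and without AKI-CKD mouse 2 it was 4.84. Ccl17 had 7, 4 and 8 UMIs in Control mice, 36, 5 and 181 UMIs in AKI-CKD, and 5, 73 and 42 UMIs in EGT-treated mice. Among the AKI-CKD mice, mice 1 and 3 were above the Control range and mouse 2 lay within it. EGT-treated mice 2 and 3 were also above AKI-CKD mouse 1. The log2 fold change of 3.63 ± 1.15 (adjusted p = 0.535) became 1.76 without AKI-CKD mouse 3. As given above, 5 cells held most of either count.

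The lymphocyte genes Ccr7, Ccl5 and Cxcr3 had positive fold changes. Ccr7 was 1.34, 2.11 and 0.934 CPM in Control mice, 1.47, 8.18 and 2.73 CPM in AKI-CKD, and 3.21, 7.85 and 4.08 CPM in EGT-treated mice. AKI-CKD mouse 1 lay within the Control range and AKI-CKD mouse 2 was the highest of all. Its log2 fold change was 1.51 ± 0.57 (edgeR adjusted p = 0.571). Cxcr3 was 0.124, 0.195 and 0.220 CPM in Control mice, 0.222, 0.691 and 0.340 CPM in AKI-CKD, and 0.327, 0.516 and 0.311 CPM in EGT-treated mice, with all AKI-CKD mice above all Control mice (log2 fold change 1.23 ± 0.48, adjusted p = 0.571). Ccl5 was 11.97, 7.52 and 6.62 CPM in Control mice, 9.18, 19.3 and 14.2 CPM in AKI-CKD, and 13.99, 24.2 and 14.8 CPM in EGT-treated mice, with overlap between the groups (log2 fold change 0.78 ± 0.30, adjusted p = 0.571). T-like cells made up 0.263% ± 0.161 (SD, n = 3) of kept cells in AKI-CKD and 0.136% ± 0.0291 in Control mice (exact two-sided permutation p = 0.2, adjusted p = 0.6), and the part of these shares in the summed levels was not tested.

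In AKI-CKD + EGT against AKI-CKD, 1 member of 37 was called, Ccl21a, and it was the only gene called (0.00496%, edgeR adjusted p = 0.0193). The AKI-CKD mice had no UMI of it in any cell, so no fold is given, and the 5 cells described above carried 374 of its 393 UMIs. It passed the filter on low counts only through the EGT-treated mice, so its direction was fixed by that filter and the call is given as a description. The call was lost (0 members called) when Control mouse 2, AKI-CKD mouse 1 or 3 or any EGT-treated mouse was left out. At an unadjusted p under 0.05, 2 members were higher, Ccl21a among them, and Ccl22 was lower (backgrounds 6.81% and 5.88%). For Ccl22 the log2 fold change was -3.72 ± 1.17 (edgeR adjusted p = 0.318). Without overlap between mice, 5 members were higher, among them Ccl21a, Ccl28, Cxcl14 and Xcr1, against 20.1% of all genes.

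**Figure D4:**
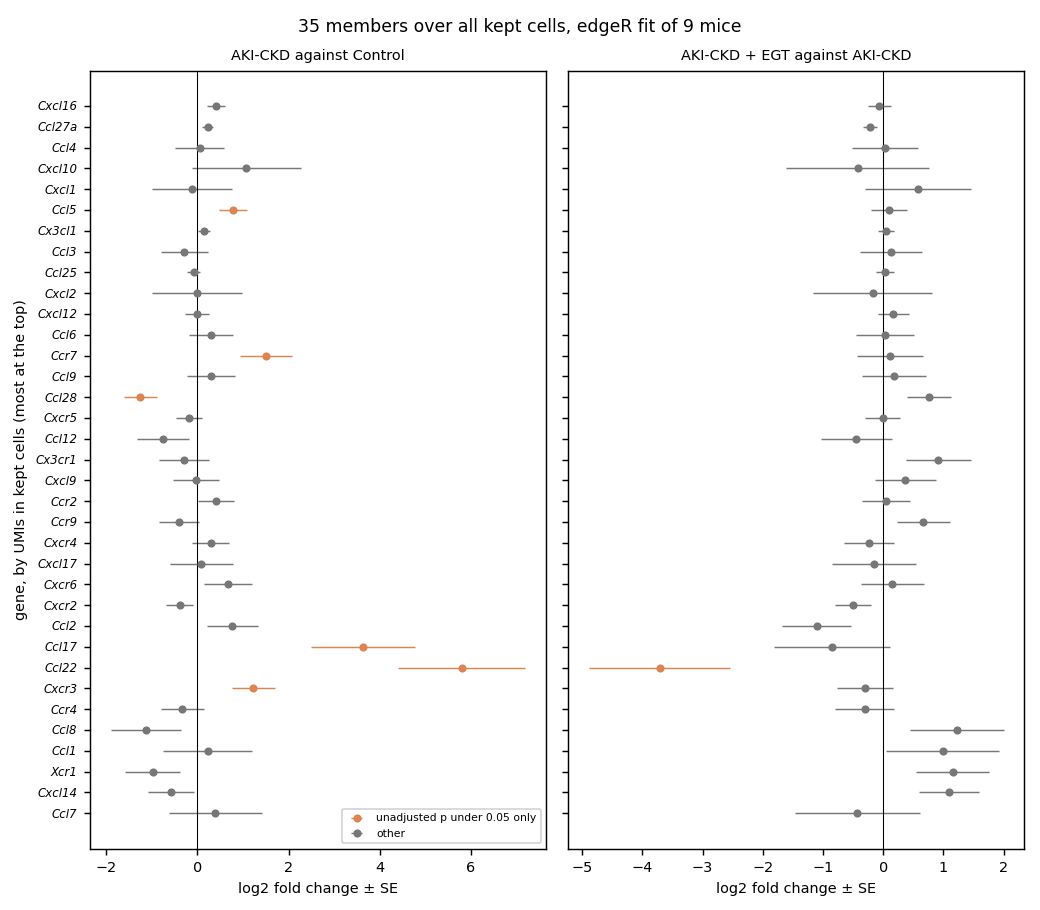
Log2 fold changes with SE of 35 tested members over all kept cells in both comparisons, ordered by UMIs, without Ccl21a, which had 0 UMIs in the AKI-CKD mice. Orange points have an unadjusted p under 0.05, and none of the plotted genes passed the adjusted threshold; Ccl22 lies at 5.80 against Control and -3.72 with EGT.

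In PT-like cells 21 members were tested among 17989 genes and none was called in either comparison (backgrounds 0.05% and 0% of genes). DESeq2 called 213 genes in AKI-CKD against Control, 2 of them members, Ccl28 and Ccl5. In the other comparison it called 450 genes and 0 members. At an unadjusted p under 0.05, Ccl5 and Cxcl16 were higher (5.14% of genes) and Ccl28 and Cxcr5 lower (6.04%) in AKI-CKD mice. With EGT, Ccl28 was higher (8.95%) and Cxcr2 lower (6.19%).

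Ccl28 was 3.76, 1.47 and 2.63 CPM in Control mice, 1.15, 0.694 and 1.23 CPM in AKI-CKD, and 1.62, 1.85 and 2.85 CPM in EGT-treated mice. All AKI-CKD mice lay below all mice of the other groups. The log2 fold change was -1.23 ± 0.33 against Control (unadjusted p = 0.00353, edgeR adjusted p = 0.315) and 0.79 ± 0.33 with EGT (adjusted p = 0.303). Both comparisons use the same AKI-CKD mice. Separation of the mice in these directions was also found in 11.8% and 21.4% of all genes. Ccl5 was 0.538, 0.385 and 0.279 CPM in Control mice, 0.660, 1.11 and 1.17 CPM in AKI-CKD, and 0.634, 1.06 and 0.926 CPM in EGT-treated mice, with all AKI-CKD above all Control mice, as in 7.04% of genes (log2 fold change 1.39 ± 0.35, adjusted p = 0.283). The NK and T lists were also present in PT-like cells at 0.410 to 0.731 and 0.585 to 0.922 CPM in the Control mice and 0.221 to 0.732 and 0.647 to 1.46 CPM in AKI-CKD mice, with all 7 and all 9 markers detected. Of 9 lists for other cell types in PT-like cells, the macrophage list had the pattern of Ccl28, at 9.67 to 16.5 CPM in Control, 4.50 to 8.20 CPM in AKI-CKD and 8.26 to 12.9 CPM in EGT-treated mice (9 of 9 detected). The neutrophil list was higher in AKI-CKD than in Control mice (117 to 161 against 80.2 to 109 CPM, 6 of 6 detected). It includes G0s2, a leading gene of the unnamed cluster found without Harmony. S100a8, another of its genes, had 406 of the 587651666 UMIs of PT-like cells, and which genes carry the sum was not tested. The erythroid list was higher with EGT (73.1 to 119.7 against 0.396 to 3.45 CPM, 5 of 5), while Control mice ran from 1.21 to 204 CPM. No other list separated the mice in either comparison. The part of these lists in the Ccl28 and Ccl5 counts was not tested.

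Cxcl16 was 45.1, 31.2 and 26.1 CPM in Control mice, 40.4, 59.0 and 34.9 CPM in AKI-CKD, and 51.0, 51.1 and 44.3 CPM in EGT-treated mice. Control and AKI-CKD mice overlapped, and the log2 fold change was 0.48 ± 0.22 (edgeR adjusted p = 0.444). Cxcr5 was 1.04, 1.55 and 1.34 CPM in Control mice, 0.964, 0.788 and 0.712 CPM in AKI-CKD, and 0.802, 0.788 and 0.948 CPM in EGT-treated mice, with every AKI-CKD mouse below every Control mouse (log2 fold change -0.61 ± 0.26, adjusted p = 0.429). Cxcr2 was 0.692, 0.646 and 0.691 CPM in Control mice, 0.687, 0.638 and 0.380 CPM in AKI-CKD, and 0.298, 0.480 and 0.406 CPM in EGT-treated mice. AKI-CKD mouse 3 lay among the EGT-treated mice (log2 fold change with EGT -0.72 ± 0.32, adjusted p = 0.323).

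In the distal nephron, 7 members were tested in LOH-like and 8 in distal convoluted tubule (DCT)-like cells, and none was called by edgeR or DESeq2 (backgrounds 0.0196% and 0.108% in LOH-like cells and 0% and 0% in DCT-like cells). Against Control no member had an unadjusted p under 0.05 in either class, where 4.58% and 5.06% of genes were higher and lower in LOH-like and 4.13% and 5.32% in DCT-like cells. With EGT, Cxcl1 was higher in both classes (background 7.38% in LOH-like and 8.51% in DCT-like cells), Cxcl12 was higher in DCT-like cells, and Ccl27a was lower in LOH-like cells (5.66%). In DCT-like cells Cxcl1 was 11.7, 2.40 and 2.42 CPM in Control mice, 0.326, 2.61 and 3.48 CPM in AKI-CKD, and 3.72, 13.2 and 11.7 CPM in EGT-treated mice, from 1, 8 and 6 UMIs in the AKI-CKD and 14, 43 and 73 in the EGT-treated mice. The EGT-treated mice lay above the AKI-CKD mice, and Control mouse 1 lay among them (log2 fold change 2.16 ± 0.75, edgeR adjusted p = 0.280). In LOH-like cells it was 18.6, 1.97 and 2.63 CPM in Control mice, 2.81, 2.82 and 2.47 CPM in AKI-CKD, and 4.78, 14.6 and 11.8 CPM in EGT-treated mice, again without overlap between EGT-treated and AKI-CKD mice, as in 11.3% of genes (log2 fold change 1.93 ± 0.73, adjusted p = 0.265). Of 10 lists for other cell types in LOH-like cells, 3 separated the mice in the same direction and 7 overlapped. Summed macrophage markers ran from 2.81 to 10.5 CPM in AKI-CKD against 12.4 to 14.5 CPM in EGT-treated mice (8 of 9 detected, Ms4a7 at 0), and the endothelial markers from 5.63 to 13.5 against 13.8 to 17.1 CPM (9 of 9). Control mice had 14.6 to 17.1 and 10.5 to 16.1 CPM of these lists.

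DCT-like Cxcl12 was 1.80, 3.61 and 3.46 CPM in Control mice, 1.63, 0.979 and 2.32 CPM in AKI-CKD, and 2.66, 4.00 and 4.80 CPM in EGT-treated mice, with the EGT-treated mice above the AKI-CKD mice (log2 fold change 1.20 ± 0.48, edgeR adjusted p = 0.311). Both DCT-like genes are among the 15.4% of genes with no overlap in that direction. In DCT-like cells 4 of 10 lists for other cell types were higher with EGT without overlap too, and the other 6, monocyte, dendritic, neutrophil, NK, B and PT, overlapped. Endothelial markers ran from 8.81 to 12.19 CPM in AKI-CKD and from 12.21 to 17.8 CPM in EGT-treated mice, macrophage markers from 2.90 to 6.53 and from 8.50 to 14.6 CPM, and T cell markers from 0.978 to 1.96 and from 3.68 to 3.72 CPM (9 of 9 detected in each list). Control mice had 8.71 to 15.3, 10.02 to 18.3 and 0.346 to 4.21 CPM of these lists. The 5 erythroid markers, all detected, ran from 0 to 2.90 CPM in AKI-CKD and from 8.76 to 229.8 CPM in EGT-treated mice, and in LOH-like cells from 0.938 to 1.69 and from 2.87 to 287 CPM, with Control mice across both ranges. The dissociation-linked genes went the other way with EGT in DCT-like cells, with a median of -0.38 and 0 of 14 above 0. The part of these lists in the Cxcl1 and Cxcl12 differences of LOH-like and DCT-like cells was not tested. Ccl27a in LOH-like cells was 64.8, 61.7 and 54.5 CPM in Control mice, 61.9, 78.8 and 69.2 CPM in AKI-CKD, and 45.9, 64.0 and 51.7 CPM in EGT-treated mice, and the EGT-treated and AKI-CKD mice overlapped (log2 fold change -0.45 ± 0.18, adjusted p = 0.301).

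In endothelial-like cells, of which each mouse had 250 to 527, 11 members were tested. None was called in AKI-CKD against Control by edgeR (0% of genes) or DESeq2, and Ccl21a was called with EGT (0.0097%, edgeR adjusted p = 0.000574) on the 5 cells above, where it had likewise passed the filter only through the EGT-treated mice, so this call is a description too (5.35% of genes had an unadjusted p under 0.05 in that direction and 11.9% had no overlap). The call was lost without Harmony and when cells over 3 times the median UMIs were left out. At an unadjusted p under 0.05, 5 members were higher in AKI-CKD than in Control mice, Cxcl12, Cx3cl1, Ccl4, Ccl5 and Cxcl2, where the background was 4.37% of genes. Ccl4 and Cxcl2 had passed the filter on low counts only through mice of the cisplatin groups. Their direction against Control was thus favoured by that filter, and both genes enter the count of 5 and the median given below. With EGT, Ccl4, Ccl5 and Cx3cl1 were lower (4.56%). The median log2 fold change over the 11 tested members was 0.65, against -0.01 over all genes, and with EGT it was -0.36 against 0.01. The 14 dissociation-linked genes had the same signs, with medians of 0.38 and -0.43, and their part in these values was not tested.

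Cxcl12 had its highest level of all classes in endothelial-like cells, and Cx3cl1 had its second highest there, after CD-PC-like cells. Cxcl12 was 27.3, 61.4 and 47.2 CPM in Control mice, 71.2, 87.0 and 89.5 CPM in AKI-CKD, and 76.4, 61.6 and 69.2 CPM in EGT-treated mice. All AKI-CKD mice lay above all Control mice, which occurred in 6.3% of genes, and Control mouse 1 was the lowest. The log2 fold change was 0.89 ± 0.24 (edgeR adjusted p = 0.377), and 0.65 without Control mouse 1. Cx3cl1 was 44.2, 31.0 and 31.1 CPM in Control mice, 42.6, 67.7 and 52.2 CPM in AKI-CKD, and 28.2, 45.3 and 32.8 CPM in EGT-treated mice. AKI-CKD mouse 2 was highest, and the groups overlapped in both comparisons (log2 fold change 0.65 ± 0.24 against Control, adjusted p = 0.461, and -0.70 ± 0.24 with EGT, adjusted p = 0.381). Of 9 lists for other cell types in this class, the monocyte list also separated AKI-CKD from Control mice, at 367 to 584 against 232 to 334 CPM (9 of 9 detected). That list includes Ace and Plac8 and was 162 to 417 CPM in macrophage-like and 362 to 907 CPM in T-like cells, so its sum is not particular to monocytes. With EGT the erythroid list separated the mice, at 9.97 to 82.1 against 0.819 to 2.92 CPM, while Control mice ran from 0 to 554 CPM. The part of these lists in the Cxcl12 and Cx3cl1 differences was not tested.

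Ccl5 and Ccl4 are leukocyte ligands, and in this class they rested on few cells. Ccl5 was 11.3, 0.660 and 1.89 CPM in Control mice, 132, 7.59 and 9.32 CPM in AKI-CKD, and 25.5, 7.24 and 12.3 CPM in EGT-treated mice. AKI-CKD mouse 1 alone stood far above the rest. The log2 fold change against Control was 3.45 ± 1.07 and was 0.91 without that mouse (edgeR adjusted p = 0.416 and 0.703, the highest over all alternatives, where it went down to 3.61e-19 without the filter on low counts). With EGT it was -1.87 ± 0.87 (adjusted p = 0.499), and it turned to 0.68 without AKI-CKD mouse 1 and to 1.1 when cells over 3 times the median UMIs were left out. Of 262 Ccl5 UMIs, 211 lay in 5 cells of 4 mice, which had a median of 10606 UMIs against 2436 in the class and 41 UMIs of NK markers, at 1008 CPM against 3.02 CPM in the other cells. Those markers were Gzma (24), Nkg7 (14), Klrb1c (2) and Prf1 (1), while Ncr1, Klre1 and Eomes were at 0. Over the whole class the NK list summed to 0.660 to 20.9 CPM in the Control mice and 0.819 to 6.53 CPM in AKI-CKD mice.

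Ccl4 was 3.22, 1.32 and 1.89 CPM in Control mice, 44.2, 12.3 and 1.86 CPM in AKI-CKD, and 8.19, 5.43 and 2.35 CPM in EGT-treated mice. AKI-CKD mouse 3 lay within the Control range. Its log2 fold change against Control was 3.19 ± 0.87 (edgeR adjusted p = 0.377), and without AKI-CKD mouse 1 it was 1.87. The 5 cells with most Ccl4 held 71 of 107 UMIs together with 96 UMIs of 8 of the 9 macrophage markers, C1qa first with 34. The macrophage list summed over the class to 14.5 to 33.9 CPM in the Control mice and 14.9 to 49.6 CPM in AKI-CKD mice, with Fcgr1 at 0. Its part in the Ccl4 difference was not tested. With EGT the log2 fold change of Ccl4 was -2.03 ± 0.73 (adjusted p = 0.389). Cxcl2 was 4.82, 1.98 and 0 CPM in Control mice, 0.819, 14.6 and 28.0 CPM in AKI-CKD, and 8.19, 22.9 and 1.17 CPM in EGT-treated mice, with overlap (log2 fold change 2.58 ± 1.07, adjusted p = 0.507).

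In macrophage-like cells, 22 to 96 a mouse, 13 members were tested among 2034 genes and none was called by edgeR or DESeq2 in either comparison (backgrounds 0% and 0.0492%). Against Control only Cxcl1 had an unadjusted p under 0.05, with 14, 22 and 3 UMIs in Control and 1, 2 and 0 UMIs in AKI-CKD mice (log2 fold change -2.51 ± 1.13, edgeR adjusted p = 0.758). The groups overlapped in CPM, since AKI-CKD mouse 1, with 22 cells of the class, lay above Control mouse 3, with 85 cells. The background for lower genes was 5.01%. With EGT only Ccl12 had an unadjusted p under 0.05 (2.95%). Ccl12 was 664, 864 and 485 CPM in Control mice, 639, 432 and 2022 CPM in AKI-CKD, and 238, 371 and 55.4 CPM in EGT-treated mice. All EGT-treated mice lay below all AKI-CKD mice, which occurred in 7.37% of genes. In AKI-CKD mouse 3, 80 of its 104 UMIs came from 1 cell. The log2 fold change was -2.20 ± 0.58 (adjusted p = 0.352) and -1.26 without that mouse.

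Cx3cr1 was 268, 269.6 and 246 CPM in Control mice, 167, 216 and 136 CPM in AKI-CKD, and 363, 278 and 208 CPM in EGT-treated mice. Every AKI-CKD mouse lay below every Control mouse, as in 7.67% of genes, but the test did not pass even before adjustment (log2 fold change -0.56 ± 0.32, unadjusted p = 0.1, edgeR adjusted p = 0.847). The inflammatory ligands had large spread: Ccl4 was 7677, 10506 and 3738 CPM in Control mice, 3973, 13449.9 and 9373 CPM in AKI-CKD, and 4757, 6217 and 5179.8 CPM in EGT-treated mice, with both comparisons overlapping, and its log2 fold change with EGT was -0.73 ± 0.40 (adjusted p = 0.529). Ccl3 gave -0.68 ± 0.37 (adjusted p = 0.530). The median over the 13 tested members was 0.11 against Control and -0.54 with EGT, beside -0.04 and 0.06 over all genes. The 14 dissociation-linked genes had the same signs here too, with medians of 0.08 and -0.19 (3 of 14 above 0 with EGT). Of 9 lists for other cell types, the PT list was higher with EGT in these cells without overlap, at 3707 to 6574 against 2517 to 3334 CPM (12 of 12 detected, Control 3161 to 6172 CPM). So was the erythroid list, at 6.25 to 103.01 against 0 CPM (4 of 5, Alas2 at 0, Control 0 to 99.6 CPM). No list separated AKI-CKD from Control mice. The part of all these lists was not tested.

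In T-like cells, 27 to 118 a mouse, 5 members were tested among 1286 genes and none was called by edgeR or DESeq2 (backgrounds 0% and 0.855%). At an unadjusted p under 0.05, Ccl5 was higher in AKI-CKD than in Control mice (4.04% of genes) and Ccl4 was lower with EGT (8.16%). Ccl5 was 2117, 2246 and 858 CPM in Control mice, 2582, 2862 and 4241 CPM in AKI-CKD, and 2360.0, 3105 and 3208 CPM in EGT-treated mice. All AKI-CKD mice lay above all Control mice, as in 9.72% of genes, and Control mouse 3 was the lowest (log2 fold change 0.86 ± 0.31, unadjusted p = 0.0128, edgeR adjusted p = 0.375). The NK list, part of which cytotoxic T cells share, summed to 839 to 1034 CPM in the Control mice and 646 to 1176 CPM in AKI-CKD mice, with 6 of 7 genes detected and Ncr1 at 0. Of 9 lists for other cell types, the monocyte list separated the mice, though it was only 162 to 417 CPM in macrophage-like cells. It was higher in AKI-CKD than in Control mice (802 to 907 against 525 to 799.6 CPM) and lower with EGT (362 to 775 CPM), with Chil3, F13a1, Vcan and Treml4 at 0. The PT list went the other way, from 4076 to 5061 CPM in Control, 2112 to 3812 CPM in AKI-CKD and 4147 to 5959 CPM in EGT-treated mice (12 of 12 detected). With EGT the neutrophil list was also higher (31.5 to 44.95 against 15.4 to 29.3 CPM, 2 of 6 detected, neither S100a8 nor S100a9), and the part of these lists in the T-like values was not tested. With EGT, Ccl4 was 214, 93.7 and 78.8 CPM against 246, 176 and 330.3 CPM in AKI-CKD mice (log2 fold change -1.01 ± 0.42, edgeR adjusted p = 0.202). The groups overlapped, since EGT-treated mouse 1 lay above AKI-CKD mouse 2. Without EGT-treated mouse 1, the mouse that made this overlap, Ccl4 was called (edgeR adjusted p = 0.0427, the lowest over all alternatives, which reached 0.508). Leaving out the mouse that went against the difference favours such a call. The share of all genes called without that mouse is not given here, so the call is a description only. In stromal-like cells 4 members were tested, and none had an unadjusted p under 0.05, against 2% and 3.39% of genes higher and lower in AKI-CKD than in Control mice and 4.81% and 3.52% with EGT. Neither edgeR nor DESeq2 called a member there (backgrounds 0% and 0%).

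**Figure D5:**
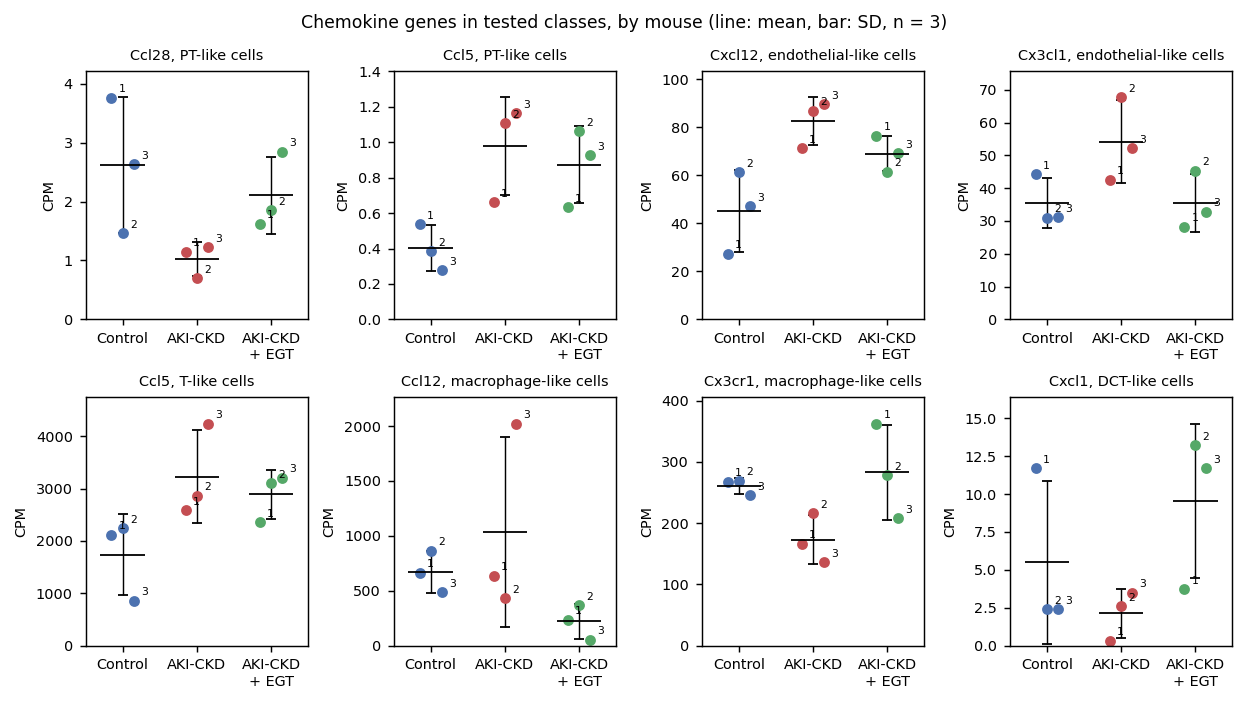
CPM by mouse (numbered points) for 8 pairs of gene and class, with the mean as a line and the SD as a bar (n = 3 mice a group), on linear axes from 0. Ccl28 in PT-like cells is lowest in the 3 AKI-CKD mice (1.15, 0.694 and 1.23 CPM), Cxcl12 in endothelial-like cells is below every AKI-CKD mouse in the 3 Control mice, and Ccl12 in macrophage-like cells is highest in AKI-CKD mouse 3 at 2022 CPM; none of the 8 passed the adjusted threshold.

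The number of cells that carry receptors was compared as shares of kept cells, where an exact two-sided permutation test of 3 against 3 mice cannot give a p below 0.1. Macrophage-like cells were 0.345% ± 0.0741 (SD, n = 3) among Control mice, 0.183% ± 0.138 in AKI-CKD and 0.423% ± 0.00441 in EGT-treated mice. All EGT-treated mice lay above all AKI-CKD mice (exact p = 0.1, the smallest possible, adjusted p = 0.6 over 10 tests). When the first macrophage clusters were taken with the immune and tubule cells included, a choice made after seeing the data, the shares were 0.281% to 1.06% in AKI-CKD and 0.948% to 1.58% in EGT-treated mice, so the groups overlapped (exact p = 0.2). With those cells left out, Control and AKI-CKD mice overlapped (exact p = 0.2). B-like cells were 0.103% ± 0.0213, 0.172% ± 0.138 and 0.296% ± 0.0738. No share of macrophage-like, T-like, B-like, endothelial-like or stromal-like cells differed at an adjusted p under 0.6 in either comparison.

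The rest of the pathway was read from lists of 6 atypical receptors and decoys, 5 chemokines and related ligands outside the naming rule (Pf4, Ppbp, Xcl1, Mif and Cklf), 19 genes of receptor signalling and the 14 genes of the inducing list. In the 8 populations tested (all kept cells and 7 classes) and both comparisons, 0 genes of these lists were called in either direction by edgeR, with the smallest adjusted p at 0.0948. Over all kept cells in AKI-CKD against Control, the ligands outside the rule had the highest median log2 fold change of the 4 lists, 0.41 with 4 of 5 genes above 0. The atypical receptors had 0.20 with 4 of 5 tested above 0, the signalling list 0.06 with 10 of 19, and the inducing list 0.14 with 7 of 13. With EGT the medians were -0.42 (1 of 5 above 0), 0.01 (3 of 5), 0.12 (13 of 19) and 0.17 (9 of 13), beside -0.01 over all genes. Mif, a chemokine-like cytokine, was 0.46 against Control and -0.52 with EGT in PT-like cells (edgeR adjusted p = 0.385 and 0.234). Ackr4, a decoy that takes up the Ccr7 ligands, was 1.28 there with EGT (adjusted p = 0.221). Ifng, the inducer of Cxcl9 and Cxcl10, was 1.53 against Control and -1.18 with EGT over all kept cells (adjusted p = 0.467 and 0.326). These 3 were chosen after their values were seen.

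Across mice rather than groups, AKI-CKD mouse 2 had the highest level over all kept cells in 15 of the 42 genes, and AKI-CKD mouse 1 and Control mouse 3 in none. AKI-CKD mouse 1 had the lowest in 17 and Control mouse 3 in 10. In these counts the tie of several mice at 0 CPM of Ccl21a was given to Control mouse 1 alone. Cxcl10 ranged from 1.56 CPM in AKI-CKD mouse 1 to 99.5 CPM in AKI-CKD mouse 2, a ratio of 63.9 within 1 group, whereas Ccl27a ranged only from 33.3 to 46.8 CPM. The dissociation-linked genes over all kept cells were 3340.4, 2958 and 1330.3 CPM in Control mice, 1823, 4192 and 2427 CPM in AKI-CKD, and 1761, 3355 and 4295 CPM in EGT-treated mice, lowest in Control mouse 3. Their part in the levels of single mice was not tested.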

How the data were processed

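Kidney cells of 9 mice (3 Control, 3 AKI-CKD, 3 AKI-CKD + EGT, grouped from the labels) were captured on the DNBelab droplet platform, and the authors deposited 1 matrix of raw UMI counts per mouse, made with PISA 1.0 on GRCm39 per the labels. The aligner, the annotation and the use of strand are not given in the sources used here. Replicates are separate mice, so p-values measure the spread between these mice, and shared replicate numbers were not used as pairs.

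Barcodes below 1000 UMIs or 500 genes, or above 15% mitochondrial UMIs, were removed (196925 cells were left, with a median of 2714 UMIs). Log-normalised counts of 2000 variable genes, without chemokine symbols, gave 30 principal components, which were corrected over the 9 libraries by an implementation of Harmony and clustered with 20 neighbours by Leiden at resolution 1.1 (igraph 0.11.9, scikit-learn 1.9.0, numpy 2.4.6, scipy 1.17.1, Python 3.11.15). Immune clusters were clustered a second time. A cluster was named from 23 marker lists, needing at least 3 markers 2-fold above the other clusters. The following naming steps were chosen after the clusters were seen: the reference was the mean of clusters led by another list, haemoglobin genes were left out, B and plasma lists counted as 1 lineage, immune cells with tubule markers formed their own class, and 1 cluster of 1342 cells with stromal and thin limb markers was split at resolution 0.1. Shares of cells with a UMI are given as measured and as calculated for cells thinned to 1000 UMIs. Limits for a count of 0 cover counting error only.

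UMIs were summed per mouse over all kept cells and over each of 7 classes, and tested with edgeR 4.0.16 (quasi-likelihood, TMM, filterByExpr, group only, 9 mice per fit, R 4.3.3), with Benjamini-Hochberg adjustment over all genes tested and a threshold of 0.05. The 7 were PT-like, LOH-like, DCT-like, endothelial-like, macrophage-like, T-like and stromal-like cells, each with at least 10 cells in every mouse. Other classes, dendritic-like and B-like cells among them, also had at least 10 cells in every mouse and were not tested. The SE of a log2 fold change is its size divided by the root of F. The test was checked on simulated counts. DESeq2 1.42.0, other filters, scalings, clusterings and left-out mice were alternatives. The members, gene lists and tests were chosen with earlier results of these data known. Members were named by rule: the 20 with most UMIs, the top 3 by mean CPM in each tested class, those with an adjusted p under 0.05, up to 3 each way with the smallest unadjusted p under 0.05 per comparison, and those within 10 UMIs of the minimum of 20, which gave 26 members. Values of other members by class were chosen after they were seen. Promoters came from RefSeq (GRCm38.p6), where 31 members had a sequence. The values of 1 member are not reported here.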

Additional observations from a re-analysis of the deposited data

Results flagged for a closer look

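Cxcr5 was detected in the barcodes that the limits on UMIs, genes and mitochondrial share removed. Over the 3 AKI-CKD + EGT mice it averaged 1.82 CPM in those barcodes, above the level in the removed barcodes of every Control mouse. By mouse the removed barcodes held 0.718, 0.508 and 0 CPM in Control mice, 0.308, 2.56 and 1.13 CPM in AKI-CKD, and 1.40, 2.99 and 1.07 CPM in EGT-treated mice. These values rest on 8, 2 and 0 UMIs in Control mice, 1, 8 and 2 in AKI-CKD, and 4, 14 and 15 in EGT-treated mice. Control mouse 3 had only 356 removed barcodes. Cxcr5 was picked by a search over all members and both cisplatin groups, and no share over all genes was calculated. The difference between groups was not tested.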

How the results depend on the processing

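Counts of members called were 2 with DESeq2 over all kept cells (Ccl17, adjusted p = 0.0490, and Ccl22, 0.0426) and 2 in PT-like cells (Ccl28, 0.0404, and Ccl5, 0.0403), each against Control. Of these, Ccl17 and Ccl22 passed the filter only through mice of the cisplatin groups. The 1 call of EGT against AKI-CKD over all kept cells, Ccl21a, which passed the filter only through the EGT-treated mice, became 0 with the replicate block, with only the 6 mice compared and, over left-out mice, 0 to 1. With EGT in endothelial-like cells its call became 0 without Harmony and without cells over 3 times the median UMIs and stayed at 1 without any 1 mouse, whereas DESeq2 called 0 and gave Ccl21a no adjusted p. Without the filter on low counts 1 member was called with EGT in LOH-like (Cxcl1), DCT-like (Cxcl1), macrophage-like (Ccl12) and T-like cells (Ccl3), and in endothelial-like cells 4 were called against Control (Ccl4, Ccl5, Cxcl12 and Cxcl2) and 4 with EGT (Ccl21a, Ccl4, Ccl5 and Cxcl9). Without Harmony Ccl5 was called in macrophage-like cells, 1 in each comparison, and the calls over all genes under that setting are not given here. T-like cells with EGT gave 0 to 1 over left-out mice, 1 (Ccl4) without EGT-treated mouse 1, the mouse that had made the groups overlap. The endothelial Ccl5 difference with EGT ran from -2.44 to 0.68 over left-out mice (0.68 without AKI-CKD mouse 1) and was 1.1 under the UMI limit. The causes were not tested. Another random seed and the inclusion of immune cells with tubule markers, both added after seeing the data, changed no count of members called.

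Over all genes, calls also differed by setting. With DESeq2 and without the filter they came to 129 and 29 over all kept cells against Control, where edgeR gave 4, and to 254 and 5 with EGT, where it gave 1. In PT-like cells they were 213 and 93 (edgeR 9) and 450 and 233 (edgeR 0), in LOH-like cells 11 and 116 (edgeR 2) and 59 and 359 (edgeR 11), in DCT-like cells 14 and 221 and 87 and 493 (edgeR 0 in both), and in endothelial-like cells 11 and 121 (edgeR 0) and 59 and 201 (edgeR 1). In macrophage-like cells they were 0 and 9 (edgeR 0) and 1 and 21 (edgeR 1), in T-like cells 1 and 4 (edgeR 0) and 46 and 11 (edgeR 11), and in stromal-like cells 0 and 14 and 2 and 44 (edgeR 0 in both).

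Over all kept cells, samples with the same replicate number correlated at -0.453 to 0.379 in their deviations from the group means. Samples with different numbers correlated at -0.400 to 0.470. With so few mice a group these ranges cannot decide whether the numbers mark a shared batch. The replicate block left 0 of 4 calls against Control over all kept cells. In percentage points of kept cells, differences over left-out mice ran from -0.0457 to 0.154 for T-like cells with EGT (negative without EGT-treated mouse 2), and against Control from -0.0103 to 0.110 for B-like and -0.334 to 0.399 for endothelial-like (both negative without AKI-CKD mouse 2) and from -0.0656 to 0.0193 for stromal-like cells (0.0193 without Control mouse 2, 0.00406 without AKI-CKD mouse 1). The class with the highest level was kept by 35 of 42 genes without Harmony, 41 with another seed, 39 under the UMI limit and 40 by the mean of mice. Of single-gene values, 526 of 590 over left-out mice and 466 of 487 under other settings kept direction and side of the threshold. Macrophage-like cells numbered 22 to 96 a mouse, and the part of such numbers in the counts of calls was not tested.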
